A study of Mus musculus with 24 samples.

Results

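The Toll-like receptors and the proteins that deliver ligands to them or signal behind them were followed in aged mouse brain as a set of 10 genes, Tlr1, Tlr2, Tlr3, Tlr4, Tlr7, Tlr9, Tlr13, Cd14, Ly96 and Myd88. They were chosen by gene symbol, with no measured value in the rule, and all 10 were among the 24411 genes listed in each of 3 tables. The study asked whether young blood and PF4, a chemokine released from platelet granules, act on the aged hippocampus. All 24 libraries came from aged male C57/Bl6 mice, 20 months old by the study's methods, that received 8 intravenous injections of 100 μl over 24 days. Whole hippocampus was taken after saline (n = 5), after the young blood plasma preparation of donors aged 3 months (n = 6), or after the young platelet fraction, the pellet spun out of such plasma and resuspended in saline (n = 6). In a separate experiment, microglia of the hippocampus were isolated after saline (n = 3) or after recombinant mouse PF4 at 5 μg/ml (n = 4), by enzymatic dissociation, removal of myelin and capture on CD11b beads. The labels number the hippocampi one by one but do not say whether a microglia library held 1 mouse or several, so the spread between microglia libraries may in part be technical.

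Toll-like receptors are germline-encoded sensors of microbial and damaged-cell material. Tlr1, Tlr2 and Tlr4 sit at the cell surface, where Tlr2 pairs with Tlr1 or Tlr6 to bind lipopeptides and Tlr4 binds lipopolysaccharide. Tlr3, Tlr7, Tlr9 and Tlr13 sit in endosomes and bind double-stranded RNA, single-stranded RNA, DNA rich in unmethylated CpG, and bacterial ribosomal RNA. Cd14 hands lipopolysaccharide to the complex of Tlr4 with its partner Ly96, also called MD-2. Myd88 is the adaptor behind every member receptor except Tlr3, which signals through Ticam1 (TRIF). In the brain these receptors are known above all from microglia, the resident macrophages, while Tlr3 is also known from astrocytes and neurons.

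The members lie on 8 chromosomes of GRCm38, the assembly also called mm10. By the GENCODE annotation of that assembly Tlr7 occupies positions 167304929 to 167330558 of the X chromosome and Tlr13 positions 106143204 to 106160493 of the same chromosome. Tlr9 lies at 106222598 to 106226883 and Myd88 at 119335934 to 119341411 of chromosome 9, Tlr2 at 83836272 to 83841767 of chromosome 3, and Tlr3 at 45395665 to 45411080 of chromosome 8. Values count reads over all exons of a gene. Myd88 overlaps the genes Acaa1a and Slc22a14 and Tlr3 overlaps Gm45542, and Tlr1 is a close paralog of Tlr6, so their counts are uncertain to the extent that reads were shared.

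Promoter sequences, from 250 bases before to 50 bases after a start site, were taken from RefSeq (GRCm38.p6), which gave an entry for 6 of the 10 members. They are shown for Tlr13, the member that passed a threshold in the comparisons of hippocampus, and for the members of chromosome 9, whose promoters hold letters of a macrophage or an interferon-response motif. Capitals mark GAGGAAGT, a core bound by the macrophage factor PU.1, or GAAANNGAA, a core of sites of interferon regulatory factors, each searched on both strands. The PU.1 letters were in 3.20% and the interferon letters in 8.56% of 32851 mouse promoters of the same length.
Tlr13, plus strand, chrX:106143025-106143324: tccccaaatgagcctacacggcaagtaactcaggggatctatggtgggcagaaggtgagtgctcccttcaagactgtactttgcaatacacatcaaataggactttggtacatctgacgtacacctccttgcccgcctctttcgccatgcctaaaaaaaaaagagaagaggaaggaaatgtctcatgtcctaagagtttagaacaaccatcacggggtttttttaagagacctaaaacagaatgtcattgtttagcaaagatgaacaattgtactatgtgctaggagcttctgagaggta
Tlr9, plus strand, chr9:106222348-106222647: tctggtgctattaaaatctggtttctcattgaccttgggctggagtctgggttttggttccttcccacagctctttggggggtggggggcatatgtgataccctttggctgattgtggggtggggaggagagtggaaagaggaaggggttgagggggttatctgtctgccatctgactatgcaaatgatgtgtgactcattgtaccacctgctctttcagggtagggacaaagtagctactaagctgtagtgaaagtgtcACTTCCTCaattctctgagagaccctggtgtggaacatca
Myd88, minus strand, chr9:119339969-119340268: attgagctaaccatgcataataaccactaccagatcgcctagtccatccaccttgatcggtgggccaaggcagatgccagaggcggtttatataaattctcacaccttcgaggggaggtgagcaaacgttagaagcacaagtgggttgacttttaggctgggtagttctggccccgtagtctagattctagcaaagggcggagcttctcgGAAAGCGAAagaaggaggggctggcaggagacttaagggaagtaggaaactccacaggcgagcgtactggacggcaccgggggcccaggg
The Tlr9 window held the PU.1 letters on its reverse strand, just after the start. The Myd88 window held the interferon letters on its forward strand, just before the start given by RefSeq. That window lies inside the gene as GENCODE places it, at 119335934 to 119341411, so the 2 annotations differ in the start. The Tlr13 window held neither, nor did those of Tlr2 and Tlr3, and 1 of the 2 windows of Tlr1 held the PU.1 letters. A match of letters describes the sequence and does not show that a factor binds there.

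Each microglia library held 19855188 to 36342162 counted reads and hippocampal libraries 6140510 to 10522699. The 12 microglia markers, P2ry12, Tmem119 and Cx3cr1 among them, summed to between 33053 and 47418 CPM (counts per library scaled to an equal total) in microglia libraries and to between 744.5 and 1093 CPM in hippocampi. Microglia libraries saline 2, PF4 2 and PF4 4 also held transthyretin (Ttr), a choroid plexus transcript, at 8013 to 20495 CPM, against 25.2 to 36.7 in the other microglia libraries. Lymphocyte markers summed to at most 17.5 CPM in microglia libraries and monocyte and neutrophil markers to at most 427.8, the latter in PF4 1. Oligodendrocyte markers summed to 7345 CPM in PF4 4 and to 49.4 to 1162 CPM in the other microglia libraries, and markers of border macrophages to 491.0 CPM in PF4 4 and 104.9 to 344.3 CPM in the others. Genes that respond to tissue dissociation, such as Fos and Jun, summed to 21468 to 30239 CPM in microglia libraries. In hippocampi they summed to 615.5 to 831.2 CPM, and their part in the levels and shares of the members was not tested. Among the hippocampi, the libraries of saline mice 7146 and 7152, young plasma mice 7147 and 7150 and young platelet fraction mouse 7148 stood apart on the first principal component, at 25.3 to 46.4 against at most -3.65 in the other 12.

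To compare genes with one another, levels were expressed as CPM per kilobase of exon. In saline microglia Cd14 led at 592.3 ± 106 (SD, n = 3) on this scale, followed by Tlr2 at 259.7 ± 30.0 and Myd88 at 178.7 ± 35.2, and the ranges of these 3 did not overlap. Tlr13 came next at 46.3 ± 0.345 and was above Tlr9 at 24.2 ± 9.36 in all 3 libraries. The ranges of Tlr9 and Tlr7 (19.8 ± 5.37) overlapped. Tlr7 stood above Tlr1 without overlap, and each later pair of neighbours overlapped, from Tlr1 (12.5 ± 2.41) through Ly96 (7.67 ± 2.91) and Tlr4 (6.25 ± 2.91) to Tlr3 (5.22 ± 1.84). Tlr4 and its partner Ly96 were among the 4 lowest members, while Cd14, which serves the same complex, was the highest. After PF4 the order of the 4 highest members was the same, and Tlr7 at 29.98 ± 3.41 then stood above Tlr9 at 16.1 ± 2.85 with ranges that did not overlap.

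In whole hippocampus of saline mice the order was different. Myd88 led at 5.38 ± 0.806 CPM per kilobase (SD, n = 5), then Cd14 at 3.48 ± 0.950, Tlr3 at 2.73 ± 0.706 and Ly96 at 2.59 ± 0.748, with overlapping ranges between each pair of neighbours. Tlr13 at 1.26 ± 0.154 and Tlr2 at 1.11 ± 0.361 also overlapped, and both stood above Tlr7, Tlr1, Tlr9 and Tlr4, which lay between 0.253 and 0.372. Tlr3, the lowest member in saline microglia, was the highest receptor in hippocampus.

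Saline microglia were then set beside saline hippocampus gene by gene. The ratio of the mean CPM was 233.3 for Tlr2, 170.4 for Cd14 and 77.3 for Tlr9, above every microglia marker. It was 53.3 for Tlr7, 36.7 for Tlr13, 34.3 for Tlr1, 33.2 for Myd88 and 24.8 for Tlr4. These lay within the range of 16.95 to 70.5 over the 12 microglia markers. For Ly96 and Tlr3 the ratio was 2.96 and 1.91, below every microglia marker. The 2 tissues were separate experiments with separate preparation, so tissue and experiment cannot be told apart and no test was made.

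**Figure D1:**
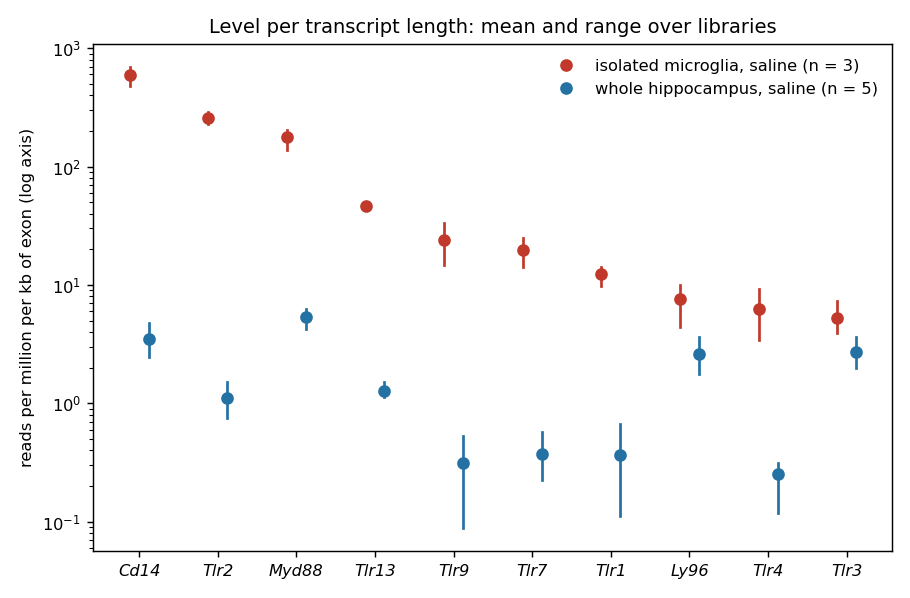
Level of each member in CPM per kilobase of exon, on a log axis, in saline microglia (red, n = 3) and saline hippocampus (blue, n = 5), with points at the mean and lines over the range of libraries. Members are ordered by their level in saline microglia, from Cd14 at 592.3 to Tlr3 at 5.22, and the blue points do not follow that order.

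The make-up of the receptor family was compared library by library as the share of each receptor in the summed level per length of 12 mouse Toll-like receptors, the 7 members with Tlr5, Tlr6, Tlr8, Tlr11 and Tlr12. Tlr2 made up 55.2% to 64.2% of the sum in saline microglia and 58.4% to 72.2% in PF4 microglia. In hippocampus its share was 11.4% to 20.2% after saline, 9.41% to 28.8% after young plasma and 10.4% to 18.9% after the platelet fraction. Tlr3 made up 0.874% to 1.78% in saline microglia. Its share in hippocampus was 30.9% to 45.2% after saline, 20.4% to 42.2% after young plasma and 30.5% to 43.7% after the platelet fraction. In young plasma mice 7147 and 7150, which stood apart on the first principal component, Tlr2 (23.8% and 28.8%) held a larger share than Tlr3 (22.2% and 20.4%). Tlr13 held a mean share of 10.9% in saline microglia and 17.4% in saline hippocampus. Tlr11 had no read in any hippocampus, and Tlr8 had none in saline hippocampi.

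**Figure D2:**
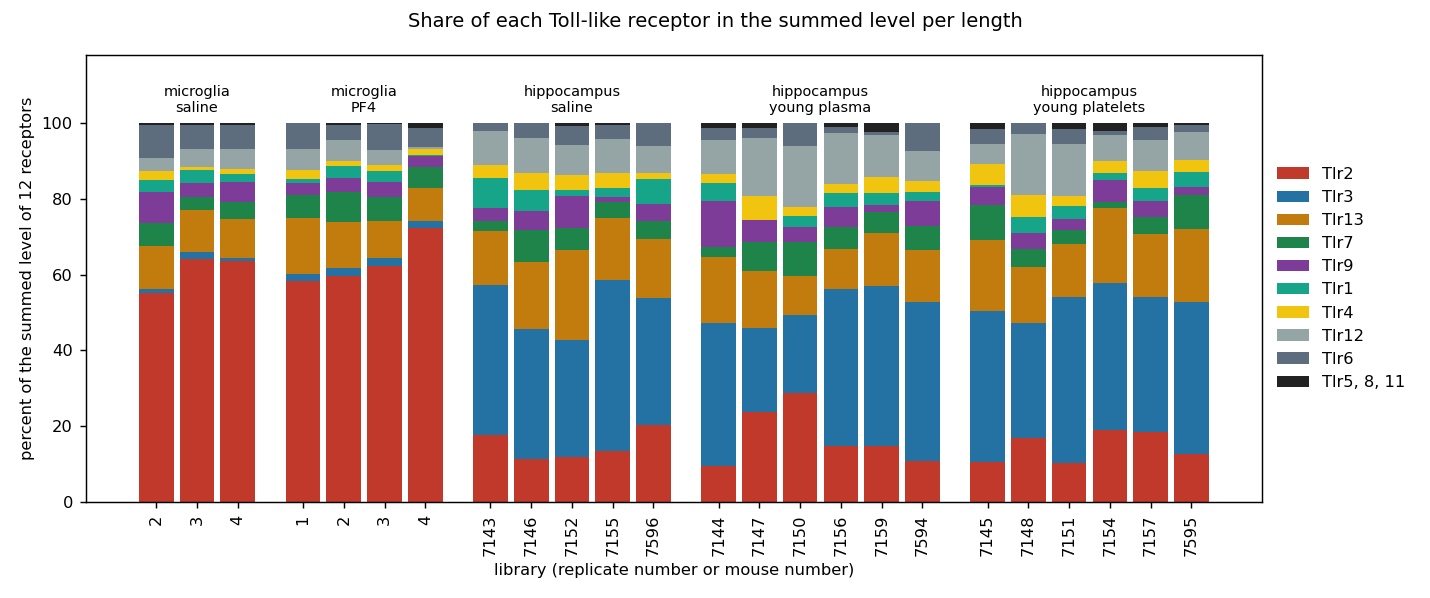
Share of each receptor, in percent, of the summed level per length of 12 Toll-like receptors, with 1 bar for each of 24 libraries. Tlr2 (red) fills 55.2% to 72.2% of the microglia bars, and Tlr3 (blue) fills 30.9% to 45.2% of the saline hippocampus bars.

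The first comparison asked whether systemic PF4 altered the members in microglia. No member passed the threshold of an unadjusted P of 0.01 in limma (0 of 10), where 0.389% of 11320 genes did, and none passed it in edgeR or DESeq2. At an unadjusted P of 0.05 the count was 1 of 10, Tlr7, where 3.45% of all genes tested were called. For Tlr7 and Tlr3, the endosomal receptors for single-stranded and double-stranded RNA, all 4 PF4 libraries lay above all 3 saline libraries, and the other 8 members overlapped. That was 2 of 10 members, where every PF4 library lay above every saline library for 2.39% of all genes tested and the groups did not overlap in either direction for 4.62%. The lowest p that 4 against 3 libraries can give in a two-sided exact permutation test is 0.0286. Over the 10 members the median log2 fold change was 0.16, and over all genes it was 0.03.

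Tlr7 read 2434, 1463 and 2082 normalized counts in saline libraries 2, 3 and 4, and 2751, 3252, 3172 and 2638 in PF4 libraries 1 to 4. The groups did not overlap, and their nearest libraries were saline 2 and PF4 4. The estimate was 1.51-fold, a log2 fold change of 0.59 ± 0.27 (SE), with a 95% interval of 2.5e-05 to 1.19. Its limma P was 0.04999, short of the threshold for microglia, with an adjusted p of 0.98 by the Benjamini-Hochberg method and an exact permutation p of 0.0286. With 1 library left out the log2 fold change of Tlr7 was 0.39 to 0.75. Without the 3 libraries high in choroid plexus transcripts, which left saline 3 and 4 and PF4 1 and 3, it was 0.76, the highest of 18 alternatives.

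Tlr3 read 483, 854 and 461 normalized counts in the saline libraries and 872, 1037, 1139 and 1029 in the PF4 libraries. Saline 3 and PF4 1, at 854 and 872, almost met. The log2 fold change was 0.82 ± 0.42, with a 95% interval of -0.12 to 1.76, a limma P of 0.0814, an adjusted p of 0.98 and an exact permutation p of 0.0286.

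The DNA sensor Tlr9 had values in the other direction. It read 2864, 1327 and 2208 normalized counts after saline and 1328, 1251, 1768 and 1239 after PF4. The groups overlapped, because saline 3 lay among the PF4 libraries. The log2 fold change was -0.56 ± 0.34 (95% interval -1.32 to 0.21, limma P = 0.137, exact permutation p = 0.2), and without the 3 libraries high in Ttr it was -0.16.

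Ratios of members within a microglia library, taken after 1 was added to each normalized count, depend little on how libraries are scaled. Between saline and PF4, 6 of 45 pairs of members did not overlap, where 4.85% of all pairs of genes tested did not. The pairs are not separate observations, since Tlr9 was in 4 and Tlr3 in 3 of the 6, and those described were chosen after their values were seen. Tlr7 and Tlr9, endosomal receptors for RNA and DNA that both signal through Myd88, were nearly level in saline microglia, with a log2 ratio of Tlr7 to Tlr9 of -0.23 to 0.14. In PF4 microglia the ratio was 0.84 to 1.378. The log2 ratio of Tlr1 to Tlr3 was 0.42 to 1.12 after saline and -3.94 to 0.10 after PF4. These are descriptions with no test.

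Tlr1 was the least even member in PF4 microglia. It read 437, 1029, 1217 and 66.3 normalized counts in PF4 libraries 1 to 4, a standard deviation of 77.2% of the mean, against 1051, 1139 and 785 after saline. PF4 4, the library with the highest oligodendrocyte and border macrophage markers, stood far below the other libraries, at 70 reads, and the part of those markers in its value was not tested. The interval of the log2 fold change ran from -3.24 to 0.91, which covers differences in both directions.

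The surface receptors and the lipopolysaccharide complex overlapped between the groups. Tlr2 had means of 20018 ± 2835 after saline and 22482 ± 3658 after PF4, with a log2 fold change of 0.16 (95% interval -0.25 to 0.57). Tlr4 had means of 865.1 ± 379.4 and 1109.5 ± 293.8 (log2 fold change 0.42, 95% interval -0.57 to 1.42). Ly96, the least abundant member by count, had means of 123.5 ± 46.8 and 182.2 ± 40.1, and its log2 interval of -1.76 to 2.97 was the widest of the 10. Cd14 had means of 24733 ± 3825 and 26331 ± 9543 (log2 fold change 0.04, 95% interval -0.52 to 0.60), with 1 PF4 library, PF4 4, at 40423 and the other 3 between 19744 and 23814. The part of the border macrophage and oligodendrocyte markers, highest in PF4 4, in this value was not tested.

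The adaptor Myd88 and the ribosomal RNA sensor Tlr13 had the narrowest intervals beside Tlr2. Myd88 had means of 8974 ± 1994 and 9560 ± 1225, with a log2 fold change of 0.11 (95% interval -0.36 to 0.58). Tlr13 read 4664, 4842 and 4874 after saline, a standard deviation of 2.36% of the mean, and 7223, 4963, 5134 and 4402 after PF4, with a log2 fold change of 0.15 (95% interval -0.33 to 0.64). Its saline libraries were nearly equal, and PF4 1 stood highest. PF4 1 was also the library with the highest monocyte and neutrophil markers, at 427.8 CPM, and their part in this value was not tested. With 1 library left out the log2 fold change of Tlr13 was 0.0091 to 0.25.

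**Figure D3:**
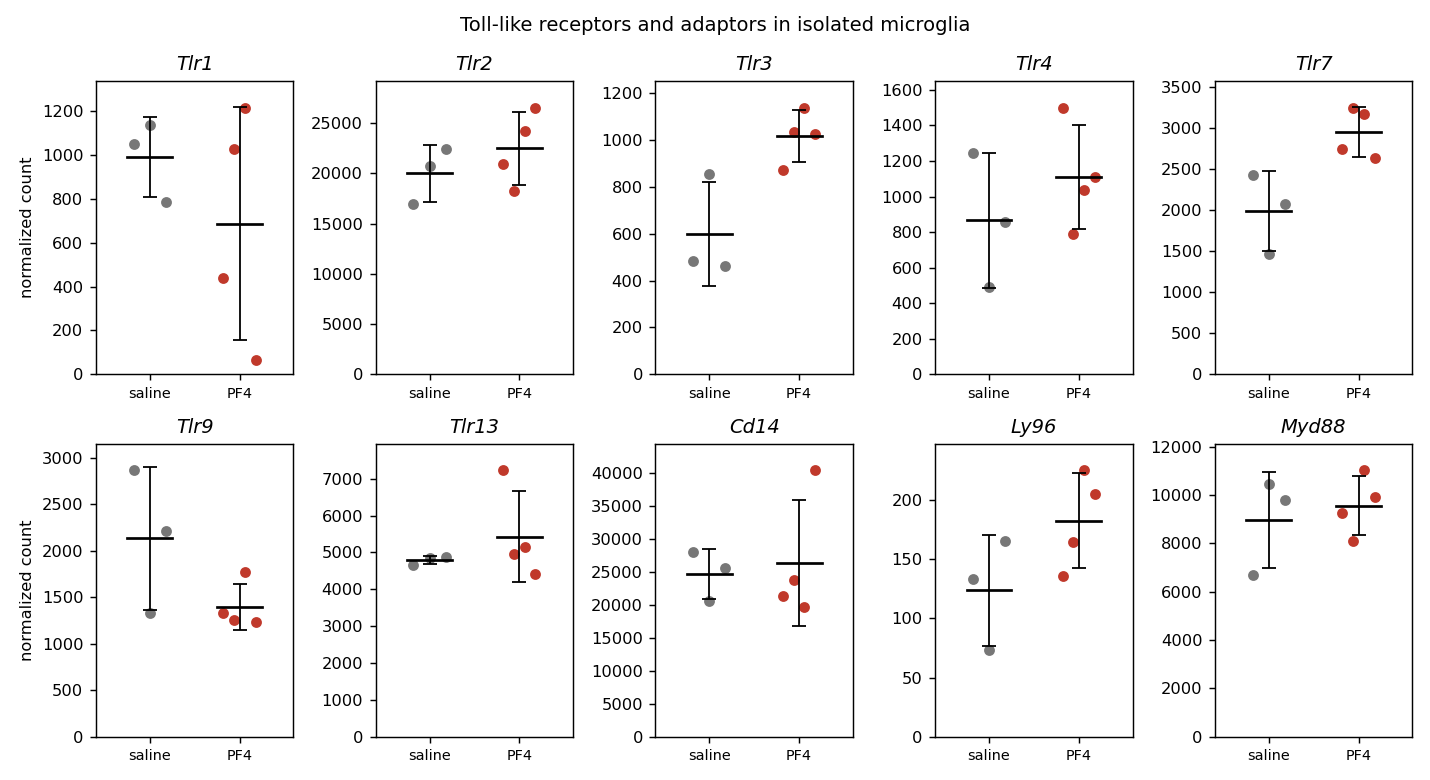
Normalized counts of the 10 members in microglia after saline (grey, n = 3) and PF4 (red, n = 4), with 1 point for each library, a bar at the mean and whiskers of 1 SD, each panel from 0. For Tlr7 and Tlr3 every red point lies above every grey point, while in the other 8 panels the groups overlap.

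The genes around the members were counted from 3 lists. Of the other Toll-like receptors and accessory proteins, 11 of 13 were tested, of the adaptors and kinases behind the receptors 25 of 25, and of the genes induced by receptor signalling 19 of 20, and 0 passed the threshold in each list, with 0, 1 and 3 at an unadjusted P of 0.05, where 3.45% of all genes were called. The median log2 fold change was -0.13, -0.15 and -0.15 in the 3 lists, beside 0.03 for all genes. Cd40, a co-stimulatory receptor induced by Toll-like receptor signalling, read 268, 2.47 and 271 normalized counts after saline and 1610, 867, 555 and 572 after PF4, so that the groups did not overlap (log2 fold change 3.69 ± 1.48, limma P = 0.0329, adjusted p = 0.98, exact permutation p = 0.0286). With 1 library left out the log2 fold change of Cd40 was 1.59 to 4.74, and saline 3, at 2.47, stood far below the other saline libraries. Socs3, an inhibitor of cytokine signalling, had means of 24109 and 17951 (log2 fold change -0.43 ± 0.18, limma P = 0.042, adjusted p = 0.98, exact permutation p = 0.0857), and 3 of 4 PF4 libraries lay below every saline library. Genes that respond to tissue dissociation, such as Fos and Jun, summed to 22701 to 30239 CPM after saline and 21468 to 24936 CPM after PF4, and their part in these values was not tested. Sarm1, a TIR-domain protein, read 1142, 285 and 278 after saline and 642, 1.93, 0 and 0.947 after PF4, with 0 to 2 reads in 3 PF4 libraries. Its log2 fold change was -5.85 ± 2.43 (limma P = 0.0373, adjusted p = 0.98, exact permutation p = 0.114). Sarm1 passed the threshold in 1 of 7 fits with 1 library left out and in 1 of 11 other settings. Ikbke, a kinase that acts on interferon regulatory factors, read 1461, 0 and 28.6 after saline and 0, 0, 14.7 and 0 after PF4, so that its mean rested on saline 2. Cd36, a partner of Tlr2, had means of 215.5 and 462.6 (exact permutation p = 0.0571), and Cnpy3, a chaperone of the receptors, had means of 5548 and 3981 (exact permutation p = 0.343).

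The second comparison asked whether the young blood plasma preparation altered the members in whole hippocampus. Tlr1 and Tlr9 were too low to be tested, and of the other 8 members 1, Tlr13, passed the threshold of an unadjusted P of 0.05, where 3.35% of 13594 genes did. In bulk tissue, fewer cells of a type and less RNA in each cell cannot be told apart. The median log2 fold change was -0.08 over the 8 members and -0.01 over all genes.

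Tlr13 read 35.8, 34.6, 46.7, 37.8 and 33.8 normalized counts in saline mice 7143, 7146, 7152, 7155 and 7596. After young plasma it ranged from 19.0 to 39.2 with a median of 26.5, and 5 of 6 mice lay below every saline mouse. Young plasma mouse 7144, at 39.2, lay among the saline mice, so the groups overlapped. The means were 37.7 ± 5.22 and 27.9 ± 7.33, a log2 fold change of -0.45 ± 0.20 with a 95% interval of -0.89 to -0.01. The limma P was 0.046, the adjusted p 0.9997 and the exact permutation p 0.0411. The call rested on few reads, 19 to 53 in each of these libraries, and was lost when any 1 of 9 libraries was left out, the exceptions being young plasma mice 7144 and 7159, with log2 fold changes between -0.55 and -0.35. It was also lost in edgeR (-0.43) and DESeq2 (-0.44), with TMM or total-count scaling, with no filter and with a term for Ttr, at log2 fold changes of -0.43 to -0.45, and was kept with a pseudocount of 0.5 or 5 and in the joint fit of all hippocampi. When the 5 outlying hippocampi on the first principal component were removed, the log2 fold change was -0.28. The microglia markers summed to 879.4 to 1039 CPM after saline and 789.1 to 1093 CPM after young plasma. With their level as a term in the fit the log2 fold change was -0.44 and did not pass the threshold.

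None of the other members tested passed. Tlr3 had means of 90.2 ± 22.1 after saline and 79.7 ± 29.0 after young plasma (log2 fold change -0.24, 95% interval -0.82 to 0.35), and Myd88 had means of 77.8 ± 12.3 and 75.8 ± 6.88 (log2 fold change -0.03, 95% interval -0.33 to 0.27). The interval of Myd88 was the narrowest of the 8. Cd14 had means of 42.2 ± 12.4 and 45.3 ± 13.6, and Tlr2 of 24.7 ± 7.98 and 25.7 ± 9.83. The log2 fold change of Tlr2 was 0.03, and without the 5 hippocampi that stood apart it was -0.57 and did not pass. Tlr4, Tlr7 and Ly96 had means between 9.41 and 12.2 in both groups, from 4 to 24 reads in a library, and their intervals spanned from -0.88 to 0.81 at the widest bounds. Tlr1 had means of 8.34 ± 5.11 and 4.67 ± 2.95 (exact permutation p = 0.247), with 0 reads in young plasma mouse 7147, which allows up to 3.33 normalized counts. Tlr9 had means of 8.08 ± 4.22 and 10.5 ± 6.78 (exact permutation p = 0.55).

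**Figure D4:**
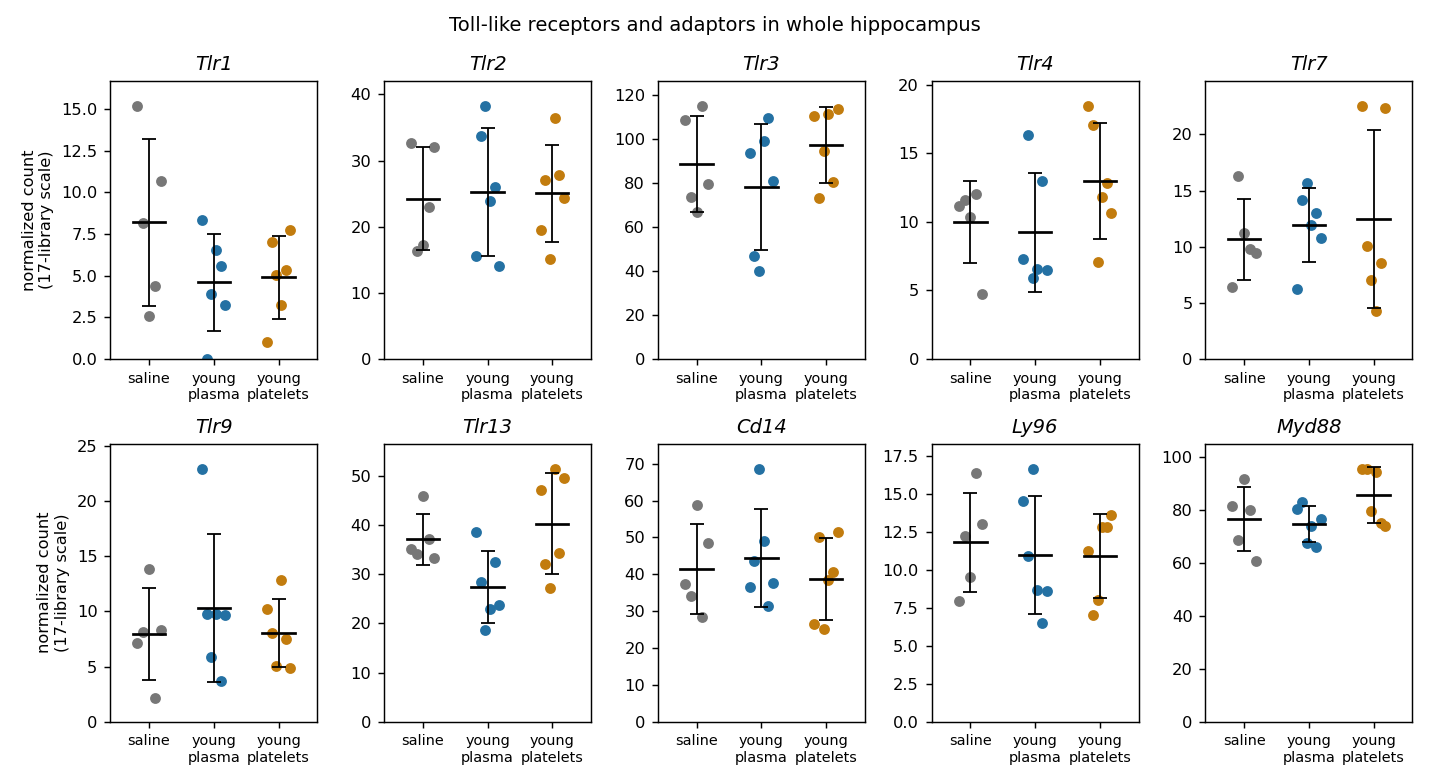
Normalized counts of the 10 members in hippocampus on the scale of all 17 libraries, after saline (grey, n = 5), young plasma (blue, n = 6) and the young platelet fraction (orange, n = 6), with 1 point for each mouse, a bar at the mean and whiskers of 1 SD, each panel from 0. In the Tlr13 panel 5 of 6 blue points lie below every grey point, and every pair of groups overlaps in all 10 panels.

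The third comparison asked the same of the young platelet fraction. No member passed in limma, edgeR or DESeq2 (0 of 8 in each), where 3.87% of 13603 genes did, and the median log2 fold change was 0.07 over the members and 0.00208 over all genes. Tlr13 had means of 37.9 ± 5.28 after saline and 41.2 ± 10.6 after the platelet fraction, with 3 of 6 mice above and 2 of 6 below every saline mouse (log2 fold change 0.09, 95% interval -0.35 to 0.52). Tlr3 had means of 90.6 ± 22.1 and 99.7 ± 17.9 (log2 fold change 0.15, 95% interval -0.24 to 0.54) and Myd88 of 78.2 ± 12.4 and 87.6 ± 10.7 (log2 fold change 0.17, 95% interval -0.14 to 0.48). Tlr4 had means of 10.2 ± 3.05 and 13.3 ± 4.29 (log2 fold change 0.35, 95% interval -0.33 to 1.03). Tlr7 was the least even, at 4.28 to 22.5 normalized counts on the scale of all 17 libraries after the platelet fraction, with mice 7145 and 7595 at 22.5 and 22.3 and the other 4 at 10.03 or less. Cd14, Tlr2 and Ly96 differed by log2 values of at most 0.10 in size, with intervals inside -0.70 to 0.63. Both treatments were set against the same saline mice, so these estimates are not independent of those for young plasma.

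The treatments were then compared with each other in a fit of all 17 hippocampi. Of 8 members 1, Tlr13, passed, where 2.23% of 13896 genes did. The same 6 young plasma mice entered the comparison with saline, so the estimates are not independent. On the common scale it ranged from 18.6 to 38.5 with a median of 26.0 after young plasma, and from 27.2 to 51.4 with a median of 40.7 after the platelet fraction. The groups overlapped, with 3 of 6 platelet fraction mice above every young plasma mouse. The level was 1.45-fold higher after the platelet fraction, a log2 fold change of 0.54 ± 0.20 (95% interval 0.12 to 0.96, limma P = 0.0151, adjusted p = 0.9994, exact permutation p = 0.0346). The log2 fold change stayed between 0.44 and 0.64 over every alternative that gave a value, and with the 5 hippocampi that stood apart removed it was 0.49, short of the threshold. The microglia markers summed to 744.5 to 952.5 CPM after the platelet fraction, and with their level as a term the log2 fold change was 0.58.

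Tlr3 was then set against the place of the hippocampi on the first principal component. It read 40.1 to 73.4 normalized counts in the 5 libraries that stood apart and 79.4 to 114.8 in the other 12, on the common scale, with no overlap. The ranges of the other 9 members overlapped between these libraries, and 7.21% of all genes tested did not overlap. The 5 libraries were set apart by a component computed from these same data, so no test was made. Between the treatments its log2 fold change was 0.38 ± 0.23 (95% interval -0.11 to 0.87, exact permutation p = 0.203), and without those 5 libraries it was 0.09. Tlr4 differed by 0.48 ± 0.31 (exact permutation p = 0.128), with 2 of 6 platelet fraction mice above every young plasma mouse. Myd88 differed by 0.19 ± 0.12 (exact permutation p = 0.0671), with 3 of 6 above. None of these 3 passed with all libraries, while with 1 library left out Tlr3 and Tlr4 each passed in 1 of 17 fits.

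**Figure D5:**
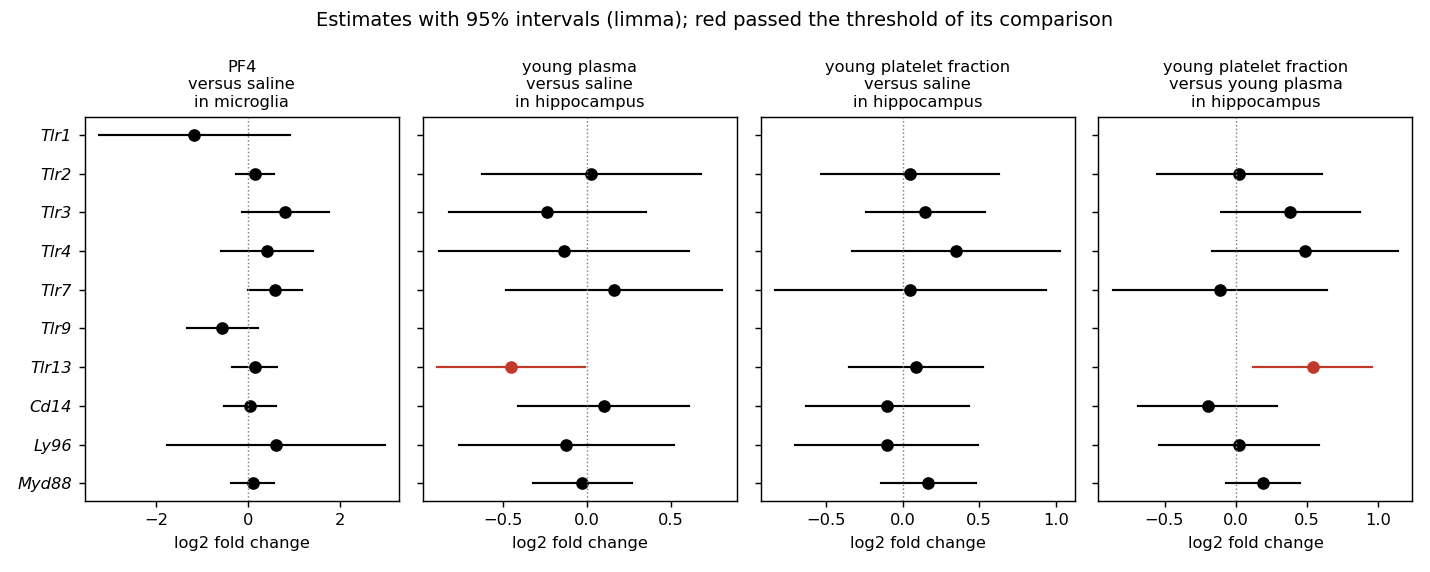
Log2 fold change of each member, as a point with its 95% interval from limma, in the 4 comparisons, with red for estimates past the threshold of the comparison (P of 0.01 in microglia, 0.05 in hippocampus) and Tlr1 and Tlr9 left blank where too low to be tested. Tlr13 is red at -0.45 for young plasma against saline and at 0.54 for the platelet fraction against young plasma.

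Around the members in hippocampus, no gene of the other receptors and accessory proteins (8 of 13 tested) or of the induced genes (8 of 20 tested) passed in any of these 3 comparisons with all libraries in limma. Of the adaptors and kinases, 1 rose and 1 fell of 24 tested after young plasma. Of all genes tested, 3.35% passed after young plasma, 3.87% after the platelet fraction and 2.23% between the treatments, beside which the counts of this list are read. Irf7, the interferon regulatory factor behind Tlr7 and Tlr9, rose from 36.9 to 62.8 normalized counts (log2 fold change 0.69 ± 0.28, limma P = 0.0288, exact permutation p = 0.0584), with 3 of 6 mice above every saline mouse. Tbk1, the kinase behind Tlr3 and Tlr4, fell from 537.3 to 459.5 (log2 fold change -0.23 ± 0.09, limma P = 0.0251, exact permutation p = 0.026), with 3 of 6 mice below every saline mouse. After the platelet fraction 1 of 24 passed, Irak3, a brake on the Myd88 pathway, which rose from 16.8 to 27.1 (log2 fold change 0.70 ± 0.26, limma P = 0.018, exact permutation p = 0.026). Between the treatments 2 of 25 passed, Tbk1 and the adaptor Traf3, both higher after the platelet fraction, with log2 fold changes of 0.22 ± 0.08 (limma P = 0.0129, exact permutation p = 0.0195) and 0.26 ± 0.09 (limma P = 0.0133, exact permutation p = 0.013). The adjusted p of each was 0.998 or more in limma, and without the 5 hippocampi that stood apart none of these 5 calls remained past the threshold. The log2 fold changes were then 0.37 for Irf7 and -0.13 for Tbk1 after young plasma, 0.69 for Irak3, and 0.16 for Tbk1 and 0.19 for Traf3 between the treatments. With 1 library left out, Irf7 was lost without saline mouse 7146 or 7596 or young plasma mouse 7144, 7147 or 7150, at log2 fold changes of 0.55 or more. Tbk1 after young plasma was lost without saline mouse 7152 or 7155 or young plasma mouse 7147 or 7150, at -0.20 or lower, and Irak3 without saline mouse 7143. Tbk1 and Traf3 between the treatments passed with each of the 17 libraries left out in turn. Of the genes that did not pass, Cd36, a partner of Tlr2, had means of 13.5 and 22.3 normalized counts after saline and young plasma (exact permutation p = 0.188), and on the scale of all 17 libraries 10.8 after the platelet fraction against 21.9 after young plasma (exact permutation p = 0.0411). Between the treatments its log2 fold change was -0.87, and it passed the threshold in 6 of 10 other settings, edgeR (-1.01) and DESeq2 (-1.02) among them, and in 4 of 17 fits with 1 library left out. Without the 5 hippocampi that stood apart it passed both after young plasma (0.98) and between the treatments (-1.26). Irak1, a kinase of the Myd88 complex, had means of 101.3 and 86.7 after saline and the platelet fraction (exact permutation p = 0.0281). Socs3 had means of 18.3 and 27.5 after saline and young plasma (exact permutation p = 0.145), and the cytokine Il1a 11.3 and 8.67 after saline and the platelet fraction (exact permutation p = 0.206). Other genes named by the rule were Tlr12 and the inhibitor Nfkbia after young plasma, the chaperone Hsp90b1 and Ly86, the partner of Cd180, after the platelet fraction, and Unc93b1, which carries endosomal receptors, and Zfp36 between the treatments, with exact permutation p of 0.128 to 0.567. Tnf and Il1b, cytokines often read as output of these receptors, had at most 3.00 and 4.42 normalized counts in any hippocampus and were not tested there.

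Genes with the pattern most like each member were found as the 2 with the highest Pearson r of log2 deviations from the group means over 17 hippocampi, among 10585 genes with a mean of at least 50 normalized counts. For Tlr13 they were Slc9a9 (r = 0.883) and Penk (r = 0.786), and over the 12 hippocampi that did not stand apart r was 0.956 and 0.854. For Tlr3 they were Ppp6c (r = 0.960) and Map3k4 (r = 0.940), and 0.822 and 0.622 over the same 12. For Tlr2 they were Elovl1 (r = 0.896) and Bpgm (r = 0.855), for Cd14 Psmd13 (r = 0.921) and Rpl22 (r = 0.847), and for Myd88 Smtn (r = 0.906) and Cmtm6 (r = 0.784). For Tlr4 they were Shisa9 and Zfp420 (r = 0.802 and 0.792), for Tlr7 Rad17 and Tbpl1 (r = 0.894 and 0.863), and for Ly96 Zfc3h1 and Mrpl32 (r = 0.784 and 0.778). Over the same 12 hippocampi r was 0.635 and 0.664 for Ly96 and 0.750 for Cd14 with Rpl22. It was 0.768 or more for the other pairs of Tlr2, Cd14, Myd88, Tlr4 and Tlr7. These are the highest of 10585 values each over points that share library depth and dissection, and they are given as a description.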

How the data were processed

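Hippocampal tissue and isolated hippocampal microglia were profiled by RNA-seq. Per the labels and the study's methods the authors used STAR for alignment (mm10), RSEM for counting and DESeq2 for their own tests. The methods name a modified Smart-Seq2 protocol and the labels a strand-specific poly(A) kit, and which one was used, and so whether strand was kept, is not settled here. The values deposited by the authors are a signal in normalized counts, each library's counts over its DESeq2 size factor, in 3 tables. Columns with the authors' log2 fold change, p-value and adjusted p were not used. Dividing by the step of 1 read gave whole reads for 100.0% of values, within 0.01 of a read, and the 5 saline hippocampi held identical reads in both hippocampal tables. Libraries were grouped by label, and every library entered its comparison. No molecular identifiers are described, so depth speaks to counting error only.

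Members and lists were chosen with earlier results of these data known. Each comparison was fitted in limma 3.58.1 (R 4.3.3) with a variance trend on log2 of the normalized count plus 1, which understates fold changes of low genes, using only its own groups and genes with 10 or more normalized counts in at least 3 microglia or 5 hippocampal libraries. A call was an unadjusted P under 0.01 in microglia or 0.05 in hippocampus, the study's thresholds, and Benjamini-Hochberg adjusted p covered all genes. In limma and edgeR 0 genes passed an adjusted p of 0.05 in each of the 4 comparisons, where DESeq2 gave 41 in microglia, 0 after young plasma, 10 after the platelet fraction and 1 between the treatments. At an unadjusted P of 0.05 limma gave 391, 456, 527 and 310 genes. The treatments were compared in 1 fit of 17 hippocampi rescaled by DESeq2. Exact permutation tests were two-sided, on log2 values. Levels per kilobase used GENCODE exons (GRCm38). The text names all members, every called gene of 3 pathway lists with the 2 smallest P per list and comparison, and the 2 genes most like each member in hippocampus. Tnf and Il1b were named after their values were seen. Fits were tested on simulated counts. The settings tried instead were a pseudocount of 0.5 or 5, all genes or only those above 50, TMM or total-count scaling, count models of the whole reads (edgeR 4.0.16, DESeq2 1.42.0), terms for Ttr or microglia markers, a joint fit of all hippocampi, a replicate block, each library left out, and 5 hippocampi left out. A fit without the 3 microglia libraries with high Ttr was added after seeing the data.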

Additional observations from a re-analysis of the deposited data

Results flagged for a closer look

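Among 40 groups of 4 to 6 libraries examined, 3 held a library of a member far from the rest of its group. Tlr9 in PF4 microglia read 1768 normalized counts in PF4 3 and 1239 to 1328 in the other 3 libraries. Tlr4 in saline hippocampus read 4.74 normalized counts, from 4 reads, in mouse 7596 and 10.4 to 12.0 in the other 4 mice. Tlr9 in young plasma hippocampus read 22.9 normalized counts, from 22 reads, in mouse 7144 and 3.70 to 9.80 in the other 5. Chance sets a library apart in this way in about 1 in 20 groups.

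Tlr13 differed between the treatments, with a log2 fold change of 0.54 for the platelet fraction against young plasma in the test of that difference itself. The adjusted p over all genes was 0.9994 in limma.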

How the results depend on the processing

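Over 34 member results and 754 alternative values the sign changed 48 times, in 13 results with estimates near 0. Genes called after PF4 numbered 44, and 179 in DESeq2, 29 with a replicate block, 7 without the 3 libraries high in Ttr and 22 to 129 with 1 library left out (129 without saline 4). No member was called in any of these. Whether replicate numbers pair the microglia libraries was not settled, since same-numbered deviations correlated only weakly, at 0.136, 0.0586 and 0.0321. Saline 2 and saline 3 correlated best with the PF4 library of the same number, and saline 4 with PF4 3 (0.197). With 1 library left out, 300 to 621 genes were called after young plasma (456 with all), 347 to 876 after the platelet fraction (527) and 234 to 531 between the treatments (310; 564 without a filter). Members called after young plasma were 0 with no filter, TMM or total-count scaling, edgeR, DESeq2, or a Ttr or marker term. They were also 0 without the 5 hippocampi apart, and with a filter at 50, which dropped Tlr13. With 1 library left out they were 0 to 1. Between the treatments they were 0 with a filter at 50, which dropped Tlr13, and without those 5. With 1 library left out they were 1 to 2, where Tlr3 or Tlr4 was called beside Tlr13. The causes were not tested.

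Signs reversed in PF4 microglia for Cd14 (-0.0616 with a Ttr term, -0.16 without the 3 libraries, -0.19 to 0.16 leaving out 1) and Myd88 (-0.0027, and -0.089 to 0.23). After young plasma they reversed for Ly96 (0.023, marker term), Myd88 (0.011 without the 5, -0.11 to 0.041 leaving out 1), Tlr2 (-0.57 without the 5, and -0.11 to 0.17) and Cd14 (-0.035 to 0.23). After the platelet fraction they reversed for Cd14 (0.067, marker term, and -0.22 to 0.037), Tlr2 (-0.28 without the 5, and -0.072 to 0.18), Tlr7 (-0.15 to 0.28), Ly96 (-0.22 to 0.017) and, of the pathway genes, Ly86 (-0.0604 without the 5). Between the treatments they reversed for Ly96 (-0.0082 in edgeR, -0.0087 in DESeq2, -0.10 to 0.15), Tlr2 (-0.017 in edgeR, -0.018 in DESeq2, -0.12 to 0.16) and Tlr7 (0.063 in both, 0.074 without the 5, -0.31 to 0.12).

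Depth limited the hippocampus, where Tlr1, Tlr4, Tlr7, Tlr9 and Ly96 had 24 reads or fewer in a library.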

Other observations

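In the genes induced by receptor signalling, all 4 PF4 libraries lay below all 3 saline libraries for Nfkbia, the inhibitor of NF-kappaB, and for the chemokine Ccl2, and above them for Cd40, which is 3 of 19 genes beside 4.62% of all genes. Nfkbia read 127033, 141316 and 131988 normalized counts after saline and 98579, 96279, 120117 and 110859 after PF4. Ccl2 read 1553, 1623 and 1447 after saline and 1006, 734, 1376 and 1327 after PF4. The log2 fold change of Nfkbia was -0.33 (95% interval -0.66 to -0.0034, limma P = 0.0481, adjusted p = 0.98, exact permutation p = 0.0571). That of Ccl2 was -0.51 (95% interval -1.29 to 0.26, limma P = 0.171, adjusted p = 0.98, exact permutation p = 0.114). Nfkbia and Ccl2 were singled out after their values were seen, and the part of tissue dissociation in them was not tested.

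Lbp, the serum protein that carries lipopolysaccharide to Cd14, had no read in the 3 saline libraries and 1 read each in PF4 1 and PF4 3. It had 916 reads in PF4 2 and 431 in PF4 4, both among the 3 libraries with high Ttr, while saline 2, the third of these, had none.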
